A study of Mus musculus with 13 samples.

Results

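The experiment asked here is whether knockdown of Setdb1 and treatment with 5-azacytidine (5-aza) acted on gene expression independently of each other in mouse embryonic fibroblasts. Poly(A) RNA was sequenced from primary fibroblasts of mid-gestation embryos that carried a mutant Xist allele on one X chromosome and a PGK strain X chromosome (XXist∆A/XPGK), transduced with a retroviral hairpin and selected with puromycin. 12 of the 13 libraries of the series entered the comparison, 3 in each of 4 groups: cells with a control hairpin or a Setdb1 hairpin, each left untreated or given 5-aza. The control hairpin was directed against luciferase (Luc) in replicate 1 and was a non-silencing hairpin (Nons) in replicates A and B. The Setdb1 hairpin was shSetdb1.6 in replicate 1 and shSetdb1.4 in replicates A and B. Where 5-aza was given, it was present for 24 h from day 3, and all cells were harvested on day 7. By the study's methods the Setdb1 hairpins were used in cells heterozygous for a Setdb1 gene-trap allele and the non-silencing hairpin in wild-type cells. The labels name no embryo or genotype for a library. Hairpin, genotype and culture therefore cannot be told apart in any comparison of Setdb1 with control hairpin cells. This holds also for a difference between them in the response to 5-aza. The remaining library, from cells given 5-aza, has no named hairpin and was left out.

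The members were chosen by a rule on names. Of 25965 rows in the table, 4061 whose name contained -ps or began with Gm and a digit, mostly pseudogenes and unnamed gene models, were set aside, and the 21904 other rows are called ordinary genes. A gene was tested when at least 3 of the 12 libraries reached 1 RPM (read count scaled to a common library size, as reads per million-read library), which 12355 ordinary genes and 779 of the rows set aside passed. The measure is the interaction: the 5-aza response in Setdb1 hairpin cells minus the 5-aza response in control hairpin cells, each response being the difference of log2 RPM with and without 5-aza within one culture (1 hairpin and 1 replicate letter). An interaction of 0 means that the 2 fold changes multiplied. A negative value means that 5-aza raised the gene less, or lowered it more, in Setdb1 hairpin cells than in control hairpin cells. Adjusted p-values are those of limma with culture as a block, after Benjamini-Hochberg adjustment over all 13134 rows tested, and a gene was called below 0.05. Nothing in the labels says that replicates came from separate embryos, so the p-values measure the spread between these cultures.

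Setdb1 is a histone methyltransferase that places trimethylation on lysine 9 of histone H3 and is known for silencing retroelements, some germline genes and imprinted loci. 5-Aza is a cytidine analogue that is built into DNA, traps DNA methyltransferases and so lowers DNA methylation as cells divide. The 2 pathways are known to meet at many silent loci, where both marks occur on the same DNA.

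The hairpins acted on sites in the coding sequence of Setdb1. The 22-base stretches of the transcript that match the guide strands are given 5′ to 3′ in the sense of the mRNA. By the study's methods the Setdb1 hairpin cells also carried the gene-trap allele. The part of the hairpins alone in the lower Setdb1 level was not tested. Both lie on the minus strand of chromosome 3 of GRCm38, in exon 16 at chr3:95327805-95327826 for shSetdb1.4 and in exon 5 at chr3:95348003-95348024 for shSetdb1.6, of 22 exons, and each was found in all 3 coding transcripts of the gene.
shSetdb1.4 site: gacagatgactttgcagacaaa
shSetdb1.6 site: gaaaagcagttctcaagatcta

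Setdb1 (chr3:95323525-95357202) was at 46.4, 46.1 and 46.3 RPM in the control hairpin libraries (replicates 1, A and B) and at 12.1, 15.4 and 14.7 RPM in the Setdb1 hairpin libraries. With 5-aza it was at 43.9, 42.7 and 43.4 RPM in control and at 10.5, 14.5 and 13.7 RPM in Setdb1 hairpin cells. The groups did not overlap between hairpins, and Setdb1 stayed low in both arms. The difference without 5-aza was -1.73 ± 0.11 (SE) on the log2 scale (adjusted p = 1.5e-06), and the interaction of Setdb1 itself was -0.04 ± 0.06, with a 95% interval from -0.18 to 0.10.

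The 12 libraries held 36421653 to 51270200 reads in genes, so that 1 RPM stood for 41.9 to 58.8 reads. Replicates differed by 3.37 to 49.7 times the variance of counting, and no pair was a duplicate deposit. Fibroblast markers were high throughout: the 12 fibroblast markers summed to between 24714 and 37053 RPM per library, against 11.2 to 17.1 RPM for 16 macrophage markers, 43.2 to 144 RPM for 10 endothelial markers and 42.8 to 72.0 RPM for 11 neural and glial markers. Of these markers, 2 macrophage, 2 endothelial and 2 neural or glial genes had at most 3 reads in any of the 12 libraries.

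For most ordinary genes the interaction was close to 0. Of the 12355 tested, 738 were called for both single treatments. For most genes an interaction near 0 therefore does not show how 2 effects combined. The median interaction was 0.02, the median absolute interaction was 0.08, and the 5th and 95th percentiles were -0.29 and 0.26. The unadjusted 95% interval of the interaction lay within 2-fold of 0 in either direction for 12055 ordinary genes (97.6%) and within 1.5-fold for 10989 (88.9%). These intervals come from the fit with culture as a block, and bound the departure from additivity gene by gene only under that pairing. Without the block the SE of the interaction was 0.50 against 0.16 for Postn, and 0.16 against 0.17 for AC120381.1. The intervals reached a median of 0.17 to either side on the log2 scale.

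120 ordinary genes departed from additivity, 87 with a lower and 33 with a higher 5-aza response in Setdb1 hairpin cells. Over all rows tested the background was 1.29% called in either direction, 1.01% lower and 0.274% higher. Ordinary genes were called in 0.97% of cases (0.70% lower, 0.27% higher), against 6.29% of the rows set aside. In all 120 genes the 3 responses of one hairpin group lay wholly above or below the 3 of the other, a separation that 21.5% of all rows tested showed. The separation rests on the same responses as the test, so it is no further support for the calls. The count depended on pairing by culture. Without the culture block 16 ordinary genes were called, all 16 of them lower and all among the 120, and no ordinary gene was called higher. At an unadjusted p under 0.05 the paired test passed 1905 ordinary genes (873 lower, 1032 higher) and the unpaired test 588. Libraries of the Setdb1 hairpin weighed heavily: 11 genes were called without Setdb1 hairpin replicate 1, 17 without replicate B and 49 without replicate A. Leaving out control hairpin replicate A raised the count to 315, leaving out control replicate B raised it to 189, and leaving out replicate 1 of both hairpins left 4.

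**Figure D1:**
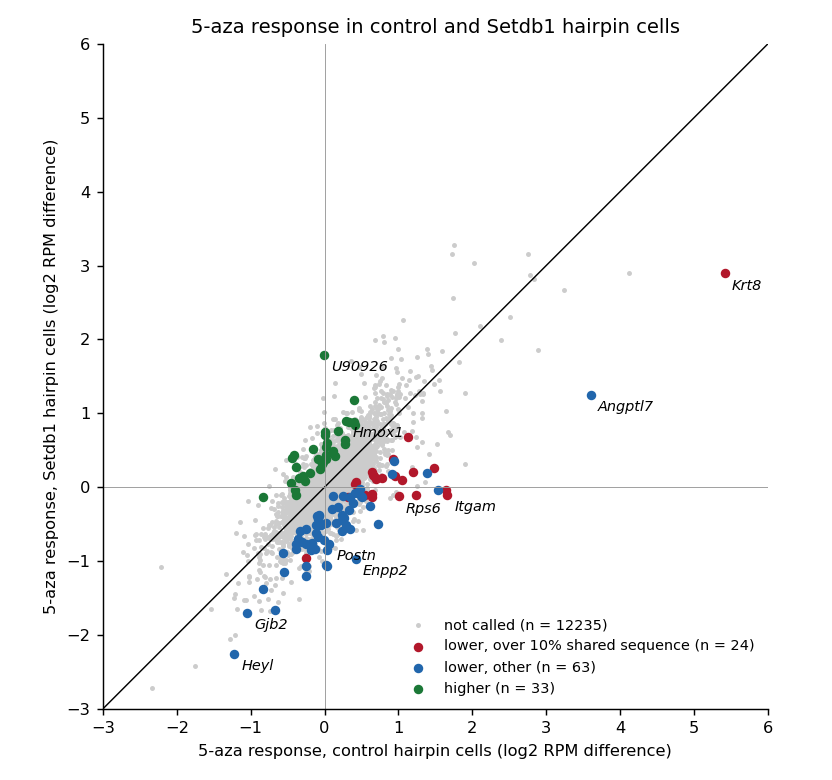
5-aza response (difference of log2 RPM with and without 5-aza, mean of 3 cultures) of each tested ordinary gene in control hairpin cells (x axis) and Setdb1 hairpin cells (y axis); the diagonal marks equal responses. Most of the 12355 genes lie along the diagonal, red and blue points mark the 87 genes called lower, red for the 24 that share over 10% of their sequence with other genes, and green points mark the 33 called higher.

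**Figure D2:**
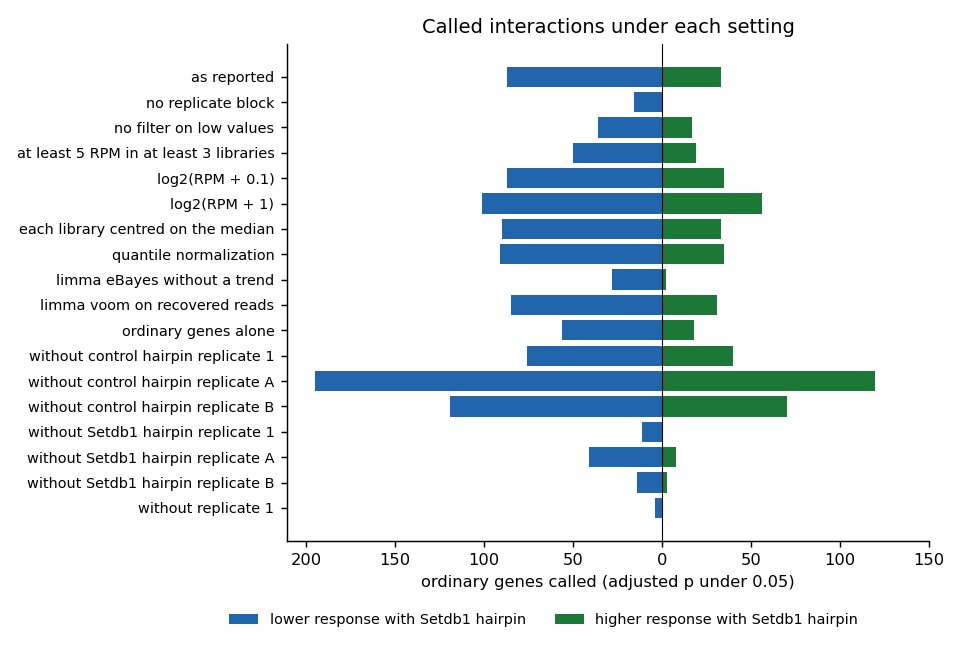
Number of ordinary genes called lower (bars to the left) and higher (bars to the right) in the main test and under each of 17 other settings. The count runs from 4 without replicate 1 to 315 without control hairpin replicate A, and no gene was called higher without the culture block, without Setdb1 hairpin replicate 1 or without replicate 1 of both hairpins.

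Set against the sum of the 2 single effects, the called genes fell into all 3 possible classes. The combined effect (Setdb1 hairpin with 5-aza against control hairpin without) was smaller than the sum and of the same sign in 51 genes, larger than the sum and of the same sign in 26, and of opposite sign in 43. Of the 87 genes called lower, 35 rose with 5-aza in control cells and either were not called (29) or rose less (6) in Setdb1 hairpin cells. Another 30 were not called in control cells and fell in Setdb1 hairpin cells, 14 fell in both, and 8 rose in control and fell in Setdb1 hairpin cells. Of the 33 genes called higher, 13 were not called in control and rose in Setdb1 hairpin cells, 9 rose in both arms, 4 fell in control and rose in Setdb1 hairpin cells, and the remaining 7 fell in control cells and fell less or were not called in Setdb1 hairpin cells. The interaction is the test of the difference between arms, and these classes only describe it. Over all rows tested, 5-aza changed 29.7% in control and 40.2% in Setdb1 hairpin cells.

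The lowest interactions belonged to genes that were nearly silent in untreated control cells and that each treatment raised alone. Krt8, a keratin of simple epithelia (chr15:101996711-102004342), had 1 read in each control hairpin library and 39, 40 and 49 reads with 5-aza. With the Setdb1 hairpin it had 10, 22 and 15 reads without and 102, 144 and 103 reads with 5-aza (replicates 1, A and B). The highest levels were therefore those of the combined treatment, at 1.96, 2.88 and 2.05 RPM, and no 2 groups overlapped. Krt8 reached the 1 RPM of the filter in no other group, so the filter partly set which group was highest. From pooled reads, 5-aza raised Krt8 43.1-fold in control cells (95% interval 14.4 to 212) and 7.23-fold in Setdb1 hairpin cells (5.32 to 10.0), where the intervals cover counting error only. The interaction was -2.53 ± 0.35 (adjusted p = 0.0077). Since 3 reads set the base of the first fold, the sign was not stable to the scale: the interaction was 0.45 with log2(RPM + 1) and 0.09 after quantile normalization. Krt8 shares 36.0% of its 31-base words with other genes, most of them with the pseudogene Krt8-ps.

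Angptl7, which encodes a secreted angiopoietin-like protein (chr4:148495183-148500460), behaved in the same way. It was at 0.106, 0.053 and 0.0863 RPM in control, 1.39, 0.84 and 0.745 RPM with 5-aza, 2.003, 1.01 and 3.79 RPM with the Setdb1 hairpin and 5.29, 3.40 and 5.73 RPM with both. The groups with a single treatment overlapped, at 0.745 to 1.39 and 1.01 to 3.79 RPM, and every other pair of groups was apart except the Setdb1 hairpin groups, at 1.01 to 3.79 and 3.40 to 5.73 RPM. The interaction was -2.35 ± 0.33 (adjusted p = 0.0086). On the scale of log2(RPM + 1) it was 0.03. Both genes have CpG-poor promoters, which are shown with CpG in capitals because 5-aza acts on DNA methylation, which occurs at CpG. The windows run from 250 bases before to 50 after the RefSeq start in GRCm38.p6, both on the minus strand. Krt8 had 6 CpG and Angptl7 had 4, where 7.34% and 4.32% of the 8843 ordinary genes with a promoter window had no more.
Krt8 promoter, chr15:102004293-102004592: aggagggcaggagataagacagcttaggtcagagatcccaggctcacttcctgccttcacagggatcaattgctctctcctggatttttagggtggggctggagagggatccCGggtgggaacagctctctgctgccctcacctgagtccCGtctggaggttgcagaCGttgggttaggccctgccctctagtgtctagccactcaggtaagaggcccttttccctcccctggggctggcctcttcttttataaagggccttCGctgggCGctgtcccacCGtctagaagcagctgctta
Angptl7 promoter, chr4:148500413-148500712: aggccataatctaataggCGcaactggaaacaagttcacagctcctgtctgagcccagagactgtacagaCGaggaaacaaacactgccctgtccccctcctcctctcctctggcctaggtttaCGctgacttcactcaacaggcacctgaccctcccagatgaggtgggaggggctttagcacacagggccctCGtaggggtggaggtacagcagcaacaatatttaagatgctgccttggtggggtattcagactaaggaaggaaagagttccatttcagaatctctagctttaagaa
The median was 22 CpG per window over all ordinary genes with a window (quartiles 15 and 30), 21 in 56 genes called lower (quartiles 6.75 and 29) and 21 in 22 genes called higher (quartiles 9.25 and 28). The medians were alike, and the lower quartiles of the called genes were below that of all ordinary genes, a difference that was not tested.

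738 ordinary genes were called for both single treatments, the Setdb1 hairpin without 5-aza (12.4% of all rows tested) and 5-aza in control cells. 287 rose with both, 103 fell with both and 348 moved in opposite directions. Of those that rose with both, 15 had a lower interaction and none a higher one. The median interaction was -0.09, with single effects of 0.45 and 0.40 and a combined effect of 0.80. Of those that fell with both, 5 had a higher interaction and none a lower one. The median was 0.07, with single effects of -0.45 and -0.39 and a combined effect of -0.72. The control libraries without 5-aza stand in both single contrasts and in the interaction, so that the choice of the genes partly sets the sign of the interaction, and these medians are a description. For 268 of the 287 and 97 of the 103 the 95% interval stayed within 2-fold of additivity.

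The 5 genes that rose most with both were Krt8, Angptl7, Tex19.1, Got1l1 and Rhox5. Tex19.1, a germline gene that protects against retrotransposons, had no read in any control library. It was at 0.39, 0.30 and 0.26 RPM with 5-aza, at 0.26, 0.19 and 0.29 RPM with the Setdb1 hairpin and at 2.26, 1.56 and 1.69 RPM with both. Rhox5, an X-linked homeobox gene of the reproductive tract, went from 0.19, 0.25 and 0.15 RPM to 1.31, 2.41 and 1.92 RPM with 5-aza, 0.692, 0.694 and 0.595 RPM with the Setdb1 hairpin and 4.62, 4.58 and 3.46 RPM with both. Both were highest under the combined treatment without overlap, the only group in which Tex19.1 reached the 1 RPM of the filter. Their interactions of -1.22 ± 0.43 and -0.57 ± 0.25 did not pass the test (adjusted p = 0.21 and 0.30). Got1l1 had an interaction of -0.40 ± 0.39. On the scale of log2(RPM + 1) the sign turned in all 5 genes, and Tex19.1 and Got1l1 then passed the test with values of 0.78 and 0.70. With limma voom on the recovered reads Tex19.1 passed it in the other direction, at -2.18 (adjusted p = 0.0082), so that neither sign nor call of this gene was stable. Among the 5 genes that fell most with both, Lgr5, a receptor for R-spondins that enhance Wnt signalling, fell from 35.5, 26.7 and 25.2 RPM to 4.41, 6.96 and 4.72 RPM under both treatments, with an interaction of -0.21 ± 0.13 and a 95% interval from -0.49 to 0.07. Synpo2l, Tnfsf18, 4833403I15Rik and C1qtnf7 had interactions of 0.84 ± 0.20, 0.66 ± 0.17, 0.58 ± 0.25 and -0.03 ± 0.25, none of which was called. With log2(RPM + 1) Synpo2l and Tnfsf18 passed the test as well, at 0.54 and 0.56 (adjusted p = 0.043 and 0.044).

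Additivity on the log2 scale means that folds multiply, and on the RPM scale the sign turned in 4 of the 120 called genes, all called lower: Krt8, Angptl7, Glipr1 and Heyl. Glipr1, which encodes a secreted protein first found in glioma and was named after its values were seen, is an example. It was at 34.6, 35.0 and 35.0 RPM in control, 85.3, 66.9 and 78.7 RPM with 5-aza, 123, 109 and 140 RPM with the Setdb1 hairpin and 202, 189 and 201 RPM with both. 5-aza added more RPM per culture in Setdb1 hairpin cells than in control cells, by 31.5 RPM on average. On the log2 scale it added less, by -0.45 ± 0.09 (adjusted p = 0.048).

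**Figure D3:**
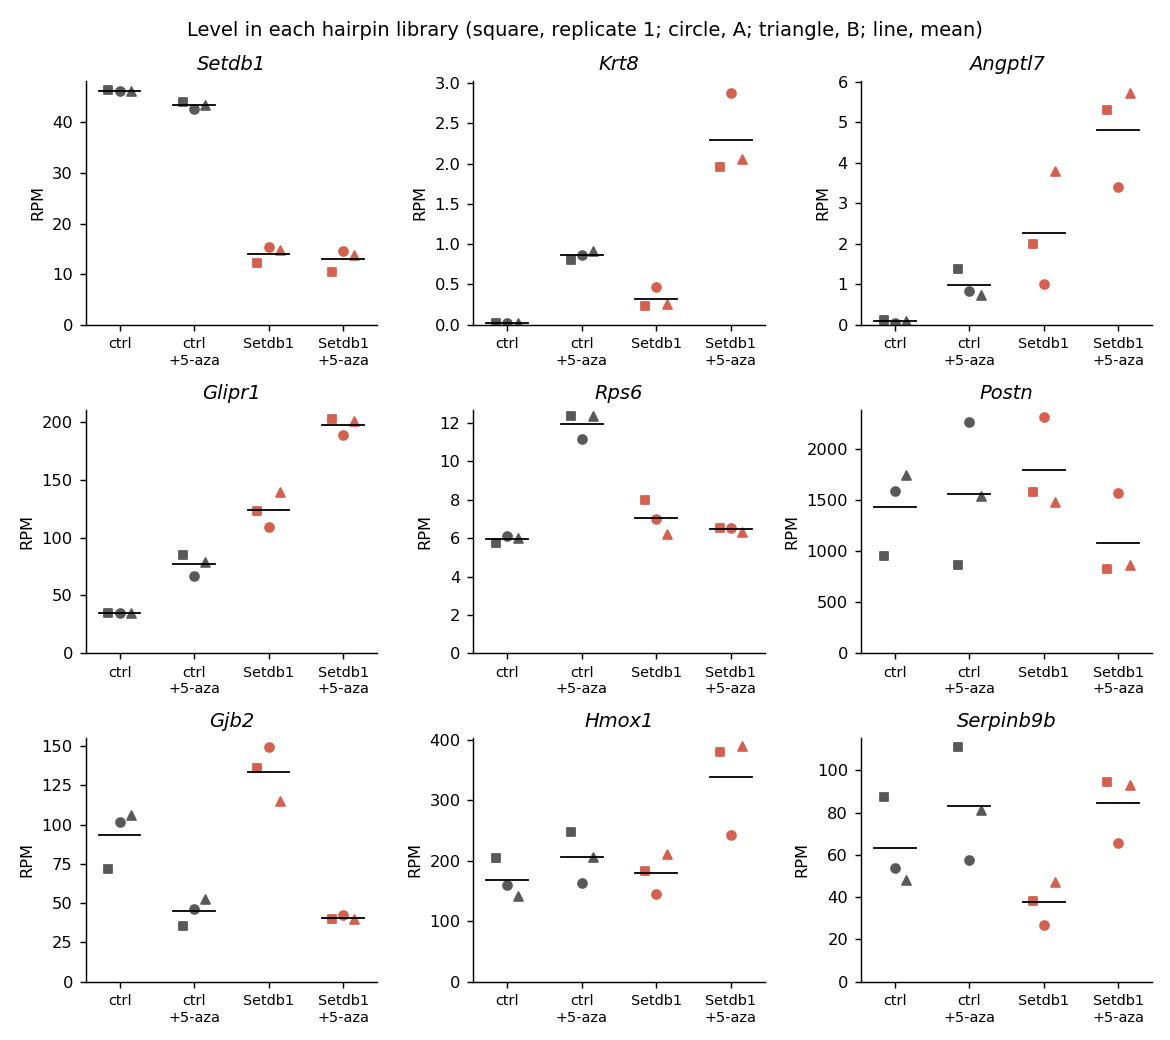
RPM of 9 genes in each of the 12 libraries, in 4 groups along the x axis, on linear axes that start at 0; horizontal lines are means of 3 libraries. Setdb1 was low with and without 5-aza in Setdb1 hairpin cells, Krt8, Angptl7 and Glipr1 rose with each treatment and most with both, Rps6 was highest in control cells with 5-aza, Gjb2 fell from a higher start in Setdb1 hairpin cells, and Hmox1 rose mostly under both treatments.

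A second group of genes with a lower interaction rose with 5-aza in control cells and were not called for 5-aza in Setdb1 hairpin cells. Many of them shared sequence with other genes. Of the 87 genes called lower, 84 had a transcript in the annotation, and 24 of these had over 10% of their 31-base words in transcripts of other genes (28.6%, against 22.5% of the ordinary genes with a value). Of the 29 that rose in control and were not called in Setdb1 hairpin cells, 26 had a value and 18 passed that limit (69.2%, median 28.2%), against 2 of the 52 that fell in Setdb1 hairpin cells (3.85%, median 0.52%). Of the 2514 ordinary genes with a value that 5-aza raised in control cells, 23.6% passed it. In 12 of the 24 the gene that held most of the shared words was an annotated pseudogene, as for Rps6 (Rps6-ps4), Psenen (Gm12396), Rps13 (Rps13-ps1), Rpsa (Rpsa-ps10), Fau (Gm9843), Armcx3 (Gm9299) and Eif2s3x (Gm2223). Of the 24, 19 shared over 10% of their words with another row that was tested. In 5 of these at least 1 such row was also called lower, with Rpl35 and Wdr38 counted for each other. Of all rows tested 1.01% were called lower. That is a rate per row, whereas a gene could have several such rows, so the values are not alike. Rps13-ps1 had an interaction of -0.90 and Rpsa-ps10 one of 0.13. The sources used here do not give how the authors' counting placed reads that fit more than 1 gene. The values of these genes may therefore hold reads of their copies, and the part of such reads in the result was not tested.

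5 of 82 tested cytoplasmic ribosomal protein genes were called lower (6.10%) and none higher, against 1.01% and 0.274% of all rows tested. 4 of the 5 were not called for 5-aza in Setdb1 hairpin cells, and Rps10 rose in both arms. Rps6 (chr4:86854660-86857412), a protein of the small ribosomal subunit, was at 5.74, 6.13 and 5.998 RPM in control and 12.4, 11.2 and 12.4 RPM with 5-aza. In Setdb1 hairpin cells it was at 8.01, 6.99 and 6.22 RPM without and 6.52, 6.54 and 6.31 RPM with 5-aza. The control response was near 2-fold in each culture, whereas the Setdb1 responses lay on both sides of 0. The interaction was -1.13 ± 0.11 (adjusted p = 0.00079). Rps13, Rpl35, Rpsa and Rps10 had interactions of -0.95 ± 0.13, -0.78 ± 0.08, -0.73 ± 0.09 and -0.45 ± 0.07. The median interaction of all 82 genes was 0.00, and that of all ordinary genes was 0.02. These 5 genes had 23.0% to 88.8% of their words in other genes. Rpl35 and its neighbour Wdr38, also called lower, shared 60.7% of the words of Rpl35.

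Itgam, the alpha chain of a macrophage and neutrophil integrin, was at 0.38, 0.51 and 0.30 RPM in control and 1.24, 1.31 and 1.15 RPM with 5-aza. Under the Setdb1 hairpin it was at 0.48, 0.46 and 0.58 RPM without and 0.50, 0.36 and 0.58 RPM with 5-aza. Only the control cells with 5-aza stood apart, and the interaction was -1.76 ± 0.28 (adjusted p = 0.016). Itgam reached the 1 RPM of the filter in no other group, so the filter partly set which group stood apart. Of its words, 68.3% occur in other genes, 67.2% in the readthrough model Gm49368. The other macrophage markers that were tested, Csf1r and Cd68, had interactions of 0.02 and 0.26, and neither was called. The 16 macrophage markers summed to 11.2 to 12.04 RPM in control, 14.99 to 17.1 RPM in control with 5-aza, 11.5 to 11.999 RPM in Setdb1 hairpin and 15.02 to 16.3 RPM in Setdb1 hairpin cells with 5-aza. Psenen, a subunit of gamma-secretase, went from 1.13, 1.13 and 1.14 RPM to 3.30, 3.08 and 3.09 RPM in control cells and from 1.17, 1.16 and 1.27 RPM to 1.496, 1.26 and 1.55 RPM in Setdb1 hairpin cells (interaction -1.22 ± 0.16, adjusted p = 0.0068).

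Genes with clone names were among the lowest interactions. AC167202.1 (chr10:81693718-81694185) had the smallest p-value of all ordinary genes. It was at 3.72, 3.61 and 3.45 RPM in control and 10.8, 10.1 and 10.4 RPM with 5-aza, but at 4.22, 3.83 and 4.52 RPM and then 4.22, 3.80 and 4.24 RPM in Setdb1 hairpin cells. Its interaction was -1.57 ± 0.10 (adjusted p = 3.8e-05). AC120381.1 and AC130279.1, processed pseudogenes in the annotation that the name rule does not catch, had interactions of -1.68 ± 0.17 and -1.36 ± 0.21. Of the 120 called rows, 111 were protein-coding, 5 were annotated pseudogenes and 3 were absent from the annotation used here. Of the 16 genes that were also called without pairing, 12 were among the 24 with over 10% shared sequence and 1 was among the 60 with less, and 3 had no value. With the genes over 10% set aside, 90 called genes remained, 63 lower and 27 higher.

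**Figure D4:**
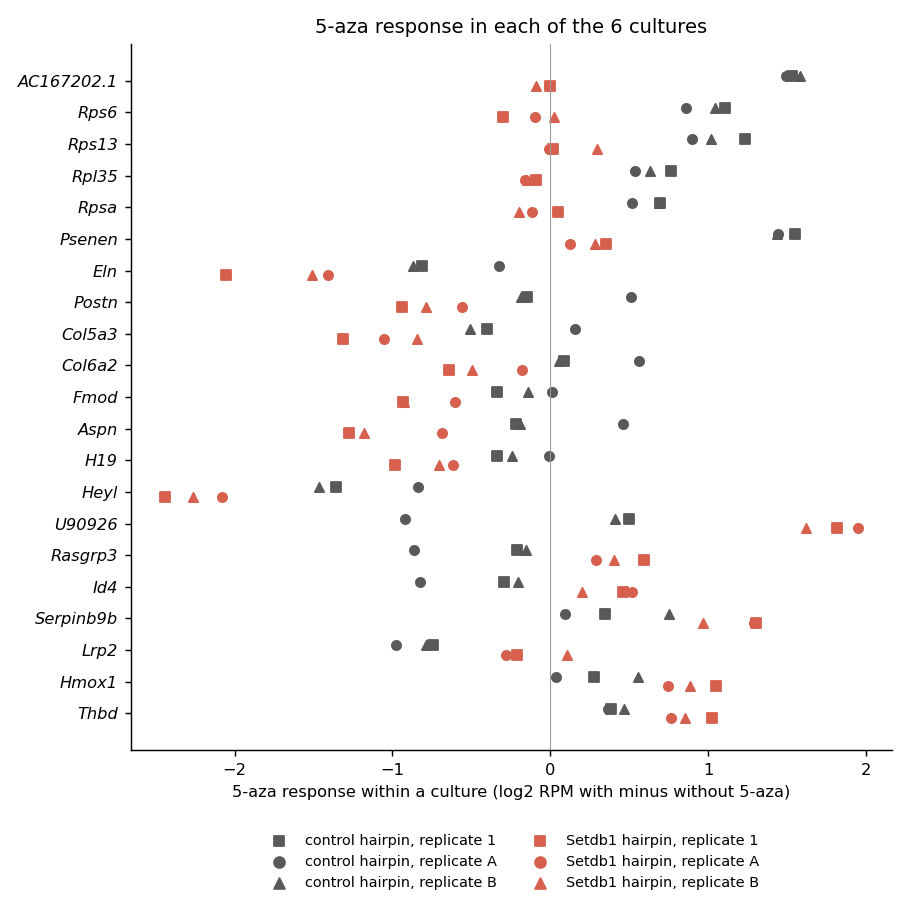
5-aza response (log2 RPM with minus without 5-aza) within each of the 6 cultures for 21 called genes; grey is control hairpin, red is Setdb1 hairpin, and the shape gives the replicate. In every row the red and grey points separate, but the genes were called on these same responses. For Postn, Aspn and the collagens control replicate A (grey circle) lies to the right of the other control cultures.

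The 52 remaining genes called lower fell with 5-aza in Setdb1 hairpin cells. They had many functions, and 6 of them were members of the matrix list. Of the 36 genes of fibrillar collagens and matrix proteins, all tested, 6 were called lower and none higher, against 1.01% and 0.274% of all rows tested. An interaction below 0 was found in 34 of the 36. The median was -0.29, against 0.02 over all ordinary genes, and members ranged from -1.03 to 0.06. In control cells 5-aza raised 4 and lowered 10 of the 36, and in Setdb1 hairpin cells it raised none and lowered 26. In either direction 5-aza changed 29.7% of all rows tested in control and 40.2% in Setdb1 hairpin cells. The 3 responses per arm did not overlap in 20 of the 36, against 21.5% of all rows tested.

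Postn, a matricellular protein of collagen-rich tissue (chr3:54361109-54391034), was at 955, 1586 and 1746 RPM in control and 861, 2265 and 1538 RPM with 5-aza. In Setdb1 hairpin cells it was at 1579, 2312 and 1483 RPM and fell to 822, 1569 and 859 RPM with 5-aza. Levels overlapped between groups, and within cultures the response was -0.15, 0.51 and -0.18 in control but -0.94, -0.56 and -0.79 with the Setdb1 hairpin. The interaction was -0.82 ± 0.16 (adjusted p = 0.039). Eln, the elastic fibre protein elastin, fell in both arms, with responses of -0.81, -0.33 and -0.87 in control and -2.05, -1.41 and -1.51 with the Setdb1 hairpin (interaction -0.99 ± 0.18, adjusted p = 0.026). Col6a2, a chain of the beaded-filament collagen VI, changed by 0.09, 0.56 and 0.05 in control and by -0.64, -0.18 and -0.49 with the Setdb1 hairpin (interaction -0.67 ± 0.14, adjusted p = 0.046). Col5a3, Col15a1 and Fmod, a collagen-binding proteoglycan, had interactions of -0.82 ± 0.16, -0.68 ± 0.14 and -0.67 ± 0.10. The chief fibrillar collagens did not pass: Col1a1, Col1a2 and Col3a1, named after their values were seen, had interactions of -0.56 ± 0.14, -0.45 ± 0.12 and -0.53 ± 0.17 (adjusted p = 0.082, 0.11 and 0.17).

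None of the 6 matrix genes was called without the culture block, and none of the list was called without Setdb1 hairpin replicate 1 or replicate B. Control replicate A stood apart in this list. Its median response was 0.17, against -0.24 and -0.15 in control replicates 1 and B and -0.37, -0.37 and -0.45 in the Setdb1 hairpin cultures. Without control replicate A the median interaction was -0.16, 32 of 36 genes lay below 0 and 11 were called lower.

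Outside the list, Fap, a surface protease of activated fibroblasts, had an interaction of -1.10 ± 0.23 (adjusted p = 0.046). Aspn, a small proteoglycan named after its values were seen, went from 126, 188 and 200 RPM to 108, 258 and 175 RPM in control cells and from 142, 245 and 155 RPM to 58.6, 152 and 68.3 RPM in Setdb1 hairpin cells (interaction -1.07 ± 0.18, adjusted p = 0.021). Tgfb2, Fbln5, Wisp2 and Serpinf1, which encode secreted signalling or matrix proteins, also fell in Setdb1 hairpin cells and were called lower, and were named after their values were seen. H19, an imprinted non-coding RNA, was at 595, 651 and 590 RPM in control and 470, 648 and 499 RPM with 5-aza. In Setdb1 hairpin cells it fell from 530, 674 and 519 RPM to 268, 441 and 318 RPM, and no library with both treatments reached the lowest of the other 9. The interaction was -0.57 ± 0.10 (adjusted p = 0.026). H19 was the 1 of 25 tested imprinted genes to be called, and the median of those genes was 0.03. Heyl, a transcriptional target of Notch, fell by 1.36, 0.84 and 1.47 on the log2 scale in control and by 2.44, 2.08 and 2.26 with the Setdb1 hairpin (interaction -1.04 ± 0.17, adjusted p = 0.016). It was the 1 of 12 tested Notch genes called. The share of all rows tested that was called lower was 1.01%.

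Gjb2, the gap junction protein connexin 26, showed a higher start and a common end, and was named after its values were seen. It was at 72.0, 102 and 106 RPM in control and 35.6, 46.3 and 52.9 RPM with 5-aza, and went from 136, 149 and 115 RPM to 40.1, 42.2 and 39.8 RPM in Setdb1 hairpin cells. The untreated groups did not overlap and the treated groups did. The interaction was -0.65 ± 0.08 (adjusted p = 0.0027). The chemokines Cxcl14 and Cx3cl1, with interactions of -0.39 ± 0.08 and -0.38 ± 0.06, were the 2 of 17 tested chemokines and cytokines called. Of all rows tested, 1.01% were called lower.

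Enpp2 and Capn6 were raised by the Setdb1 hairpin, raised by 5-aza in control cells and lowered by 5-aza in Setdb1 hairpin cells, and Scx and Des were raised by each treatment alone. Enpp2 (autotaxin, which makes the lipid mediator lysophosphatidic acid) was at 0.446, 0.495 and 0.583 RPM in control and 0.58, 0.732 and 0.726 RPM with 5-aza. In Setdb1 hairpin cells it was at 3.05, 3.26 and 3.18 RPM and fell to 1.36, 1.94 and 1.59 RPM with 5-aza, so that all 4 groups but the control pair were apart. The interaction was -1.39 ± 0.20 (adjusted p = 0.0089). Capn6, an X-linked calpain without protease activity, rose from 2.08, 3.22 and 3.21 RPM to 3.42, 7.08 and 4.002 RPM in control and fell from 6.03, 10.0 and 5.63 RPM to 3.49, 8.24 and 4.16 RPM in Setdb1 hairpin cells (interaction -1.23 ± 0.20, adjusted p = 0.016). Scx, a transcription factor of tendon cells, rose from 1.17, 1.43 and 1.42 RPM to 3.17, 4.22 and 3.22 RPM with 5-aza in control cells. In Setdb1 hairpin cells it was already at 4.25, 4.50 and 3.26 RPM and was at 4.10, 6.14 and 3.68 RPM with 5-aza (interaction -1.20 ± 0.16, adjusted p = 0.0068). Des, the muscle intermediate filament desmin, rose from 12.1, 13.1 and 15.3 RPM to 22.5, 28.5 and 26.3 RPM in control and from 19.3, 19.3 and 19.5 RPM to 25.1, 27.7 and 22.04 RPM in Setdb1 hairpin cells. Its interaction was -0.58 ± 0.11 (adjusted p = 0.028). It was the 1 of 18 smooth muscle contractile genes called, where 1.01% of all rows tested were called lower.

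The 33 genes with a higher 5-aza response in Setdb1 hairpin cells had smaller interactions, with a median of 0.48 and 1 gene at or above 1. That gene was U90926, whose function is not well described. It was at 3.29, 2.24 and 1.88 RPM in control and 4.66, 1.18 and 2.49 RPM with 5-aza, and went from 2.48, 0.67 and 2.28 RPM to 8.74, 2.60 and 7.01 RPM in Setdb1 hairpin cells. It rose in all 3 Setdb1 hairpin cultures by 1.62 to 1.95 on the log2 scale and in 2 of 3 control cultures by at most 0.50 (interaction 1.80 ± 0.31, adjusted p = 0.024). Hmox1, the haem-degrading enzyme of the oxidative stress response, was at 205, 159 and 141 RPM in control and 248, 163 and 207 RPM with 5-aza. It went from 184, 145 and 211 RPM to 381, 243 and 391 RPM in Setdb1 hairpin cells (interaction 0.61 ± 0.12, adjusted p = 0.033). Ccrn4l (nocturnin, a phosphatase with a daily rhythm) and Serpinb9b, a serine protease inhibitor, rose in both arms and more with the Setdb1 hairpin, with interactions of 0.58 ± 0.08 and 0.79 ± 0.14, and share 39.0% and 10.99% of their words with other genes. Serpinb9b shows a lower start and a common end. It went from 87.2, 53.9 and 48.2 RPM to 111, 57.4 and 81.1 RPM in control and from 38.4, 26.9 and 47.4 RPM to 94.6, 65.6 and 92.9 RPM in Setdb1 hairpin cells, so that the untreated groups did not overlap and the treated groups did.

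Rasgrp3, an activator of Ras, and Id4, an inhibitor of helix-loop-helix transcription factors, fell with 5-aza in control and rose in Setdb1 hairpin cells. Their interactions were 0.84 ± 0.16 (adjusted p = 0.034) and 0.83 ± 0.15 (adjusted p = 0.024). Id4 changed by -0.29, -0.83 and -0.20 in the control cultures and by 0.46, 0.52 and 0.20 in the Setdb1 hairpin cultures. Lrp2, the endocytic receptor megalin, fell by 0.74, 0.98 and 0.79 in control and changed by -0.21, -0.28 and 0.11 with the Setdb1 hairpin (interaction 0.71 ± 0.11, adjusted p = 0.017). Fgf10, a mesenchymal growth factor, and Fgl2, a fibrinogen-like protein, were lowered by the Setdb1 hairpin alone (-0.85 ± 0.25 and -1.15 ± 0.20), and rose with 5-aza in its presence, with interactions of 0.71 ± 0.13 and 0.75 ± 0.15. Sorbs2, Cyp4a12a and Sema3d had interactions of 0.67 ± 0.14, 0.67 ± 0.14 and 0.56 ± 0.11. Cyp4a12a shares 62.2% of its words with other genes, all of them with its paralogue Cyp4a12b. The interaction of Cyp4a12b was 0.54 and was not called. Lpl, which splits circulating triglycerides, was the 1 of 11 tested adipocyte genes called (0.48 ± 0.09), and Hist1h2bl was the 1 of 33 tested histone genes called (0.36 ± 0.07), with 88.6% of its words in other histone genes and models. Over all rows tested, 0.274% were called higher. No gene of this class was called without the culture block.

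In the list of DNA replication and mitosis genes no gene was called. Of its 45 members, 44 had an interaction above 0. The median was 0.23, against 0.02 over all ordinary genes. 5-aza lowered 38 of the 45 in control cells and 20 in Setdb1 hairpin cells. It changed 29.7% and 40.2% of all rows tested in those arms, in either direction. The median response was -0.19, -0.54 and -0.42 in control replicates 1, A and B and -0.15, -0.23 and -0.10 in the Setdb1 hairpin cultures, so that control replicate 1 lay within the range of the Setdb1 hairpin cultures. 17 of the 45 genes had responses that did not overlap between arms, against 21.5% of all rows tested. Without control replicate A the median fell to 0.14 and 2 were called higher. Without control replicate 1 the median was 0.31 and 4 were called higher.

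**Figure D5:**
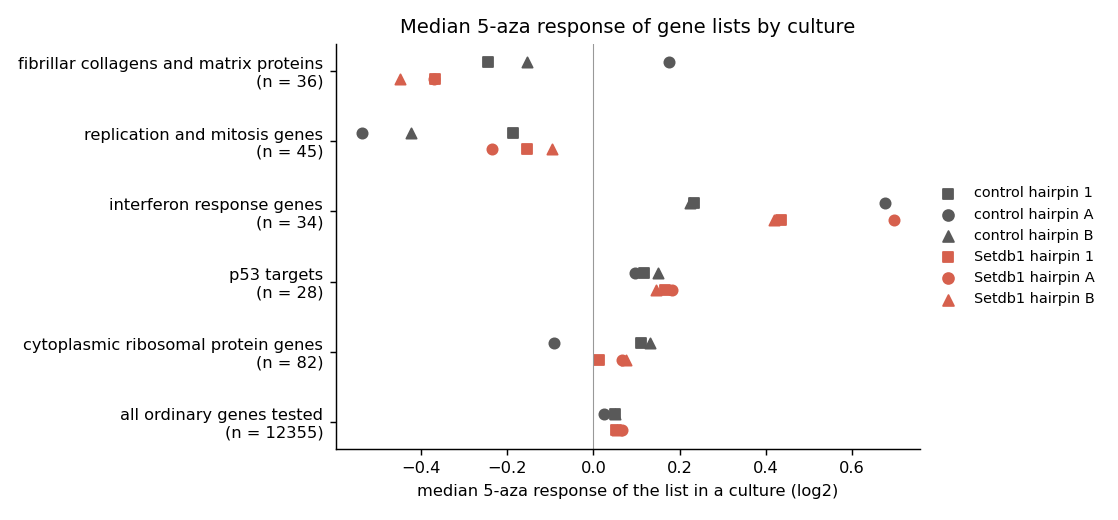
Median 5-aza response (log2) of 5 gene lists and of all ordinary genes in each of the 6 cultures; grey is control hairpin, red is Setdb1 hairpin. Matrix genes lie lower in the Setdb1 hairpin cultures (-0.45 to -0.37) than in the control cultures (-0.24 to 0.17), replication and mitosis genes lie between -0.23 and -0.10 in the Setdb1 hairpin cultures and between -0.54 and -0.19 in the control cultures, so that the ranges overlap, and the medians of all ordinary genes lie between 0.03 and 0.07.

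The other lists held few called genes or none, beside 1.29% called over all rows tested. Of 34 tested interferon response genes none was called, although 5-aza raised 22 of them in control and 27 with the Setdb1 hairpin, and their median interaction was 0.08. Responses of this list were highest in replicate A of both hairpins, with medians of 0.68 and 0.70, against 0.22 to 0.43 in the other cultures. Of 28 tested p53 targets 13 rose in each arm, none was called for the interaction, and the median was 0.03. Beside these interferon and p53 counts, 5-aza changed 29.7% of all rows tested in control and 40.2% with the Setdb1 hairpin, in either direction. No gene was called among 16 H3K9 methyltransferases and Setdb1 partners (median -0.0027), 16 DNA methylation enzymes and readers (0.01), 16 tested germline genes (0.06), 321 Zfp zinc finger genes (-0.02), 13 clustered protocadherins (-0.19, all 13 below 0), 35 Hox genes (0.04), 14 cartilage genes (-0.14), 18 matrix metalloproteinases and inhibitors (-0.13) or 7 skeletal muscle genes (-0.08). The 3 tested genes of the prolactin family, which is known from the placenta, had interactions of 0.40 to 1.13 and none was called. Krt8 was the 1 of 9 tested keratin and epithelial genes called. Of the marker lists none but the macrophage list held a called gene: the 12 fibroblast, 5 endothelial and 5 neural and glial genes tested had medians of -0.28, -0.26 and -0.12.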

How the data were processed

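The deposited table held log2 RPM per gene and library, made by the authors. The submitters' processing notes name mm10 and CASAVA 1.4. The study's methods describe TopHat with Bowtie1 on the X chromosome of mm9 for counting alleles in these cells, another build than that of the notes. The aligner, counting and strand setting behind the deposited table are not given in the sources used here. Values were turned back into whole reads, and a row without reads held the log2 value of 0.9 read. Paired differences were fitted with limma 3.58.1 (R 4.3.3, eBayes with trend, culture as a block) to genes that reached 1 RPM in 3 or more libraries, and scripts were tested on simulated data. Setdb1 hairpin against control was fitted without the block. Pairing rests on the labels (hairpin and letter). Residuals of same-culture libraries correlated at 0.586, 0.149 and 0.0999 in control replicates 1, A and B. They correlated at 0.472, 0.634 and 0.413 in Setdb1 hairpin replicates 1, A and B. The lowest correlation taken to show pairing was 0.1, and control B fell just short of it. Shared sequence was the share of 31-base words of a gene's transcripts (GENCODE, GRCm38) found in those of other genes. Intervals from pooled reads cover counting error only. Named genes were Setdb1, the 12 highest and 12 lowest called interactions, called genes of the lists, and the 5 that rose and 5 that fell most with both single treatments. Members, lists and tests were chosen with earlier results of these data known. Alternatives were other pairing, filters, pseudocounts, scaling and variance models, and leaving out libraries.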

Additional observations from a re-analysis of the deposited data

Results flagged for a closer look

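In 120 ordinary genes the 5-aza response differed between hairpins by a test of the difference itself (limma with culture as a block, Benjamini-Hochberg adjustment), and the 41 of them named by the rule are given here. Those raised by 5-aza in control and raised less, or not called, with the Setdb1 hairpin were Krt8 (-2.53), Angptl7 (-2.35), Itgam (-1.76), AC120381.1 (-1.68), AC167202.1 (-1.57), Psenen (-1.22), Scx (-1.20), Rps6 (-1.13), Rps13 (-0.95), Rpl35 (-0.78), Rpsa (-0.73), Des (-0.58) and Rps10 (-0.45), together with AC130279.1 (-1.36). Enpp2 (-1.39) and Capn6 (-1.23) rose in control and fell with the Setdb1 hairpin. Those not called in control, or lowered, and lowered further with the Setdb1 hairpin were Fap (-1.10), Heyl (-1.04), Eln (-0.99), Postn (-0.82), Col5a3 (-0.82), Col15a1 (-0.68), Col6a2 (-0.67), Fmod (-0.67), H19 (-0.57), Cxcl14 (-0.39) and Cx3cl1 (-0.38). The higher interactions were those of U90926 (1.80), Rasgrp3 (0.84), Id4 (0.83), Serpinb9b (0.79), Fgl2 (0.75), Lrp2 (0.71), Fgf10 (0.71), Cyp4a12a (0.67), Sorbs2 (0.67), Hmox1 (0.61), Ccrn4l (0.58), Sema3d (0.56), Lpl (0.48) and Hist1h2bl (0.36).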

How the results depend on the processing

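The count of 120 called genes became 16 with no replicate block (pairing left out), 53 without a filter on low values, 69 at 5 RPM, 30 without a variance trend and 74 with ordinary genes tested alone, and ranged from 4 to 315 when libraries were left out; the cause was not tested. The median interaction was 0.0085 with median centring and 0.0097 with quantile normalization. Signs turned positive for Krt8 (0.45 with log2(RPM + 1), 0.092 with quantile normalization), Angptl7 (0.030 with log2(RPM + 1)), Rhox5 (0.40 and 0.10 in the order given for Krt8), Tex19.1 (0.42 with log2(RPM + 0.1), 0.78 with log2(RPM + 1), 0.62 with quantile normalization) and Got1l1 (0.46, 0.70 and 1.14 in the same order). Values near 0 turned for C1qtnf7 (0.018 and 0.10 with the 2 pseudocounts, 0.11 and 0.02 without control replicate 1 and B, 0.09 without Setdb1 hairpin replicate A; -0.21 was the lowest value with a library left out) and Setdb1 (0.0037 without Setdb1 hairpin replicate 1, 0.012 without replicate 1; -0.063 was the lowest value with a library left out). With limma voom Tex19.1 was at -2.18. Of 833 pairs of a named gene and a setting, 18 changed sign. Genes with few reads limit what can be said of folds: 3 reads in all stand behind the control level of Krt8.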

Other observations

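The library with no named hairpin was in no comparison. It held Setdb1 at 47.0 RPM, Krt8 at 3.19 RPM (65 reads), Angptl7 at 4.32 RPM (88 reads), Itgam at 6.28 RPM and Rps6 at 6.33 RPM.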
